A study of Bombus terrestris with 8 samples.

Results

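The miR-92 family of the bumblebee Bombus terrestris was represented by 2 miRNAs, listed as miR-92b and miR-92c-2 and here called Bte-miR-92b and Bte-miR-92c-2. They were taken by name, as the rows of the deposited table of predicted miRNAs called miR-92 followed by a letter or a hyphen, and made up 2 of 123 rows and 2 of 111 distinct mature sequences. The row for miR-927 only begins alike and is no member. The data were small RNA sequences of queen-destined female larvae, obtained from colonies from which the queen had been taken away; the labels give no other treatment. Each library was made from a pool of whole larvae of 1 colony. Early-instar libraries (EQ) held larvae of the first and second instars, which can still become queens or workers, and late-instar libraries (LQ) held larvae of the fourth instar, whose caste is fixed. The labels list 4 libraries per instar, and the values of EQ1, EQ2, EQ3, EQ4, LQ1, LQ3 and LQ4 were read. LQ2 and the worker-destined larvae were not analysed here. The study set aside library 2 of each instar after checking its normalization, because longer reads left less sequencing room for shorter ones. Therefore EQ1, EQ3 and EQ4 were compared with LQ1, LQ3 and LQ4, and EQ2 is given beside them.

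In animals, a mature miRNA is cut from 1 arm of a hairpin precursor and guides an Argonaute protein to messenger RNAs. Recognition rests mainly on the seed, which is bases 2 to 8 counted from the 5′ end, and miRNAs with the same seed are grouped as a family because they can pair with the same sites. The miR-92 seed is found in insects and in mammals. In Drosophila melanogaster, members of this family are active in neuroblasts, the dividing stem cells of the larval brain, and miR-92b holds down Mef2, a transcription factor of muscle.

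The mature sequences are shown because their seed defines the family and because their likeness bears on how reads were assigned. They are written 5′ to 3′ as DNA letters, with the seed in capitals.
Bte-miR-92b: aATTGCACccgtcccggcctga
Bte-miR-92c-2: aATTGCACtcgtcccggcctgc
Both were 22 nt long and were identical at 20 of 22 positions. Counted from the 5′ end, with the base of Bte-miR-92b first, they differed at C9T and A22C, so the seeds were the same. Over the first 21 bases they differed at 1 position. Mapping to the genome allowed 1 mismatch and the match to known miRNAs up to 2, so shortened and even full-length reads of 1 member could have matched the other, and how far their values share reads was not tested. In both, 14 of 22 bases were G or C (63.6%), against a median of 45.5% over the 111 distinct sequences, and 1 other sequence had a higher share.

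The precursors differed far more than the mature sequences. They are given with the mature sequence in capitals, from the B. terrestris genome v.1.0 used by the table.
Bte-miR-92b precursor: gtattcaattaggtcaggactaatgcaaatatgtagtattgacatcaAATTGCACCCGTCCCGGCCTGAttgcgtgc
Bte-miR-92c-2 precursor: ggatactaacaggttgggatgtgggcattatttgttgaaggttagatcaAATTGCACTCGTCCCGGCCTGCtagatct
The Bte-miR-92b precursor lies on the plus strand of scaffold Group9.4 from 128769 to 128845 (77 nt), and its mature sequence from 128816 to 128837. The Bte-miR-92c-2 precursor runs from 1205627 to 1205704 (78 nt) of scaffold Group15.5, on the minus strand, with the mature sequence from 1205634 to 1205655. Which genes or exons surround them was not analysed here. A global alignment matched 51 of 79 columns of the precursors (64.6%), and 28 of 49 columns (57.1%) over the part that precedes the mature sequence.

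Both mature sequences sit on the 3′ arm, at positions 48 to 69 of 77 in Bte-miR-92b and 50 to 71 of 78 in Bte-miR-92c-2. The table has 1 row for each of these precursors, so the opposite arm has no value here. RNAfold predicted a single hairpin for each, with a minimum free energy of -28.0 kcal/mol and 27 base pairs for Bte-miR-92b and of -31.0 kcal/mol and 30 base pairs for Bte-miR-92c-2. The terminal loop had 7 nt in the former and 8 nt in the latter. Within the mature sequence 16 of 22 bases were paired in Bte-miR-92b and 19 of 22 in Bte-miR-92c-2, and within the seed 5 of 7 and 6 of 7. Of the positions at which the mature sequences differ, position 9 was unpaired in both predictions, and position 22 was paired in Bte-miR-92b and unpaired in Bte-miR-92c-2.

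**Figure D1:**
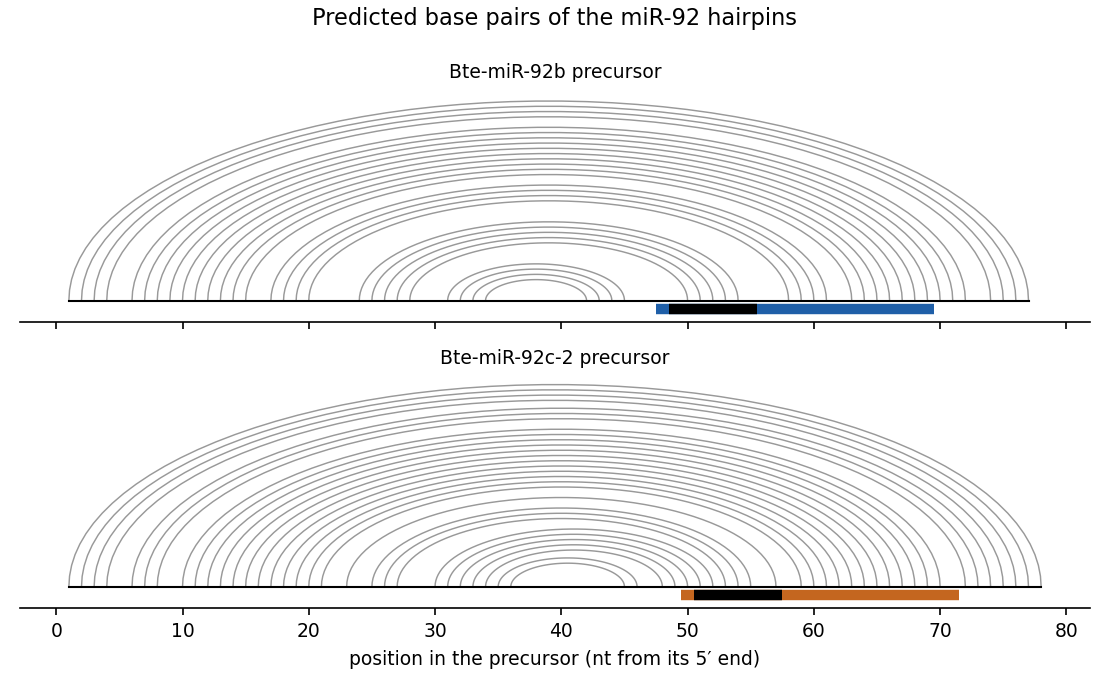
Base pairs that RNAfold predicted for the precursors of Bte-miR-92b (top, 77 nt) and Bte-miR-92c-2 (bottom, 78 nt), each arc joining 2 paired positions counted from the 5′ end. The coloured bar marks the mature sequence and its black part the seed; both lie on the 3′ side, with 27 pairs in the upper hairpin and 30 in the lower.

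The deposited table holds integers, and the study's data statement describes it as raw counts. The sums of its columns were judged not to follow the read numbers that the study lists for each library, a comparison that is not given here. The values were therefore taken as reads normalized and rounded by the authors. They are called normalized reads here, and this unit is an inference. With each mature sequence counted once they summed to between 173255 and 233785 in the 6 libraries compared and to 140733 in EQ2, or 62.4% of what EQ1, EQ3 and EQ4 had on average. With values of this kind the number of reads behind each is unknown, and no counting interval is given. Bte-miR-1, a muscle miRNA, held between 40.1% and 44.0% of the sum in all 7 libraries.

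Bte-miR-92b was lower in late than in early instars. It had 380 normalized reads in EQ1, 644 in EQ3 and 424 in EQ4 (mean 483 ± 141, SD, n = 3) and 233 in LQ1, 140 in LQ3 and 213 in LQ4 (mean 195 ± 49.0, SD, n = 3). The highest late-instar value thus stayed under the lowest early-instar value, and the late mean was 40.5% of the early mean. On log2(normalized reads + 20), a scale that understates the change of low values, the log2 fold change was -1.21 (standard error 0.27, 95% interval -1.77 to -0.66). limma with Benjamini-Hochberg adjustment over 100 rows gave an adjusted p of 8.30e-04. An exact permutation test of the difference in means, two-sided, gave p = 0.1, the smallest that 3 libraries against 3 allow. EQ2 had 248 normalized reads, the lowest of the early instars but still above all late-instar libraries, and with it the log2 fold change was -0.997 (adjusted p = 0.00309 from limma). The larvae were sampled whole, so fewer cells with a miRNA and less of it per cell cannot be told apart.

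Bte-miR-92c-2 fell as well. Its values were 219 normalized reads in EQ1, 285 in EQ3 and 288 in EQ4 (mean 264 ± 39.0, SD, n = 3) and 75 in LQ1, 100 in LQ3 and 97 in LQ4 (mean 90.7 ± 13.7, SD, n = 3). The instars did not overlap, and the late mean was 34.3% of the early mean. Its log2 fold change of -1.36 (95% interval -1.87 to -0.85, standard error 0.25) had an adjusted p of 1.08e-04 from limma, and p was again 0.1 by exact permutation. EQ2 had 103 normalized reads, which exceeded the highest late-instar value, 100, by a small margin, and with EQ2 the log2 fold change was -1.06 (adjusted p = 0.00150 from limma). If EQ2 is brought to the sum of the other early-instar libraries, its values become 165 for Bte-miR-92c-2 and 397 for Bte-miR-92b.

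**Figure D2:**
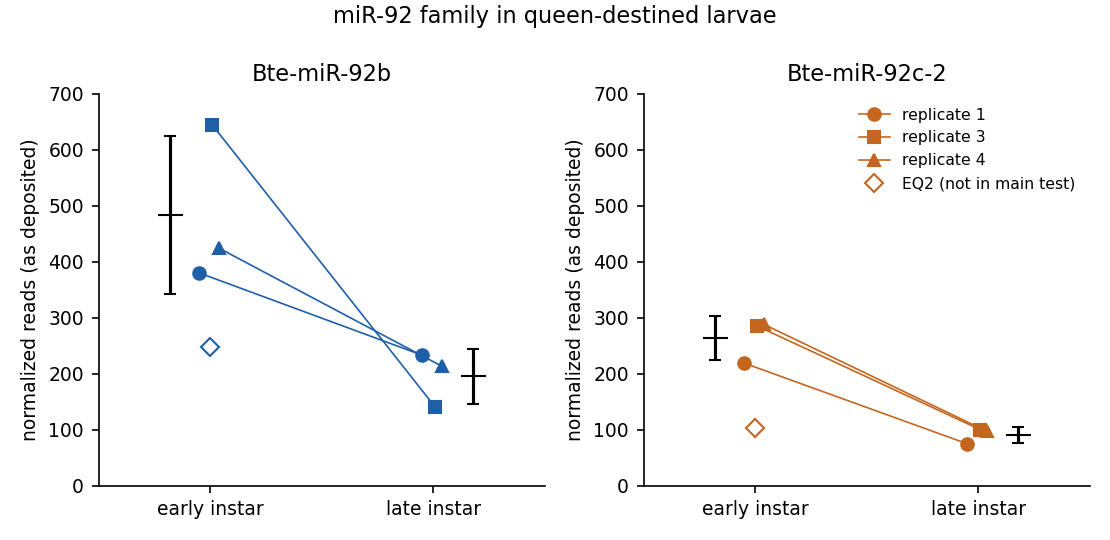
Normalized reads of Bte-miR-92b (left) and Bte-miR-92c-2 (right) in each library, with lines joining pools that share a replicate number, an open diamond for EQ2, and black bars for the mean ± SD of the 3 libraries per instar without EQ2. Early values of Bte-miR-92b run from 380 to 644 and late values from 140 to 233; for Bte-miR-92c-2 they run from 219 to 288 and from 75 to 100.

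Many other miRNAs fell between the instars. At an adjusted p under 0.05 from limma, 27 of 100 rows (27%) were lower in late instars and 16 (16%) higher, and the early and late ranges were separate, with late lower, in 33 rows (33%). Both members of the family were among the rows that were lower by each of these measures. Ordered by the size of the fall, Bte-miR-92c-2 was number 11 and Bte-miR-92b number 13 of 97 distinct sequences tested, and both fell more than the median sequence, whose log2 fold change was -0.14. Rescaling the libraries by their median ratio moved the median over all rows by 0.20, and the log2 fold changes were then -0.99 for Bte-miR-92b and -1.15 for Bte-miR-92c-2.

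**Figure D3:**
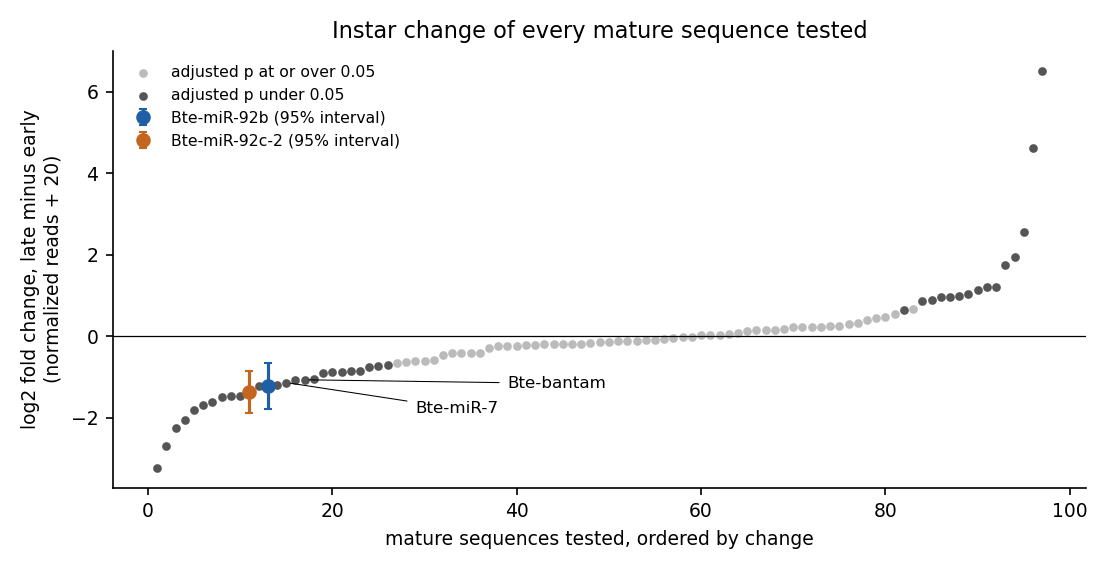
Log2 fold change of late minus early instars on log2(normalized reads + 20) for the 97 distinct mature sequences tested, in order of change, with dark points for an adjusted p under 0.05 from limma and light points for the others. Bte-miR-92c-2 (-1.36) and Bte-miR-92b (-1.21) are drawn with 95% intervals, numbers 11 and 13 from the left, not far from Bte-miR-7 (-1.13) and Bte-bantam (-1.06).

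The study's own measure, the log2 offset fold change, sets the lowest value of the higher instar against the highest value of the lower instar, each plus 20, and asks for a change of at least 1. On the deposited scale it was -0.66 for Bte-miR-92b and -0.99 for Bte-miR-92c-2, and 7 of 100 rows (7%) reached -1 or lower. Bte-miR-92c-2 was thus just short of the criterion, and with offsets of 1 and 5 it passed, at -1.12 and -1.09. Bte-miR-92b did not reach it with either offset (-0.70 and -0.69). With EQ2 the offset fold changes were -0.08 for Bte-miR-92b and -0.04 for Bte-miR-92c-2, because this measure rests on the lowest early-instar library.

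Ranks and shares within a library do not depend on how libraries were scaled, and they moved in the same direction. Among the 111 distinct sequences, Bte-miR-92b ranked 35 in EQ1, 28 in EQ3 and 32 in EQ4 and 39 in LQ1, 47 in LQ3 and 42 in LQ4. Bte-miR-92c-2 ranked 43, 39 and 39 in the early and 50, 51 and 50 in the late instars. In EQ2 the ranks were 36 and 45, between those of the other early-instar and of the late-instar libraries. The family as a whole held 0.266% of the normalized reads in EQ1, 0.402% in EQ3 and 0.324% in EQ4 (mean 0.330 ± 0.068, SD, n = 3) and 0.178% in LQ1, 0.103% in LQ3 and 0.153% in LQ4 (mean 0.145 ± 0.038, SD, n = 3). Its share in EQ2 was 0.249%, also above the late instars (exact two-sided permutation p = 0.0571 for 4 libraries against 3, the smallest possible).

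Bte-miR-92b was the more abundant member in 7 of 7 libraries. The ratio of Bte-miR-92b to Bte-miR-92c-2 was 1.74 in EQ1, 2.26 in EQ3 and 1.47 in EQ4, 2.41 in EQ2, and 3.11 in LQ1, 1.40 in LQ3 and 2.20 in LQ4. The lowest and the highest ratio were both found in late instars, and the instars overlapped. On the log2 scale with 20 added to each value, the ratio in early instars was 0.80 ± 0.30 (SD, n = 3) and that in late instars 0.94 ± 0.50 (SD, n = 3), a difference of 0.14 (exact two-sided permutation p = 0.8). Over the 9 pairs of a late with an early library the difference ran from -0.71 to 0.89, and without LQ1 its mean turned to -0.09. An unequal fall of the members was therefore not detectable with these libraries, which leave room for differences of that size.

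Changes were also compared within colonies. Pools with the same replicate number come from 1 colony in the study's lists, which name some colonies differently. Within these pairs the late-instar value of Bte-miR-92c-2 was 34.2%, 35.1% and 33.7% of the early-instar value for replicates 1, 3 and 4. For Bte-miR-92b it was 61.3%, 21.7% and 50.2%, so that the fall was largest in replicate 3, where the early value was the highest and the late value the lowest of those compared. The coefficient of variation between libraries was 29.3% in early and 25.1% in late instars for Bte-miR-92b, and 14.8% and 15.1% for Bte-miR-92c-2 (n = 3 each). With EQ2 the early-instar coefficients were 38.8% for Bte-miR-92b and 38.7% for Bte-miR-92c-2 (n = 4), so the difference between them in early instars rests on leaving out that library. Whether the spreads differ was not tested.

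**Figure D4:**
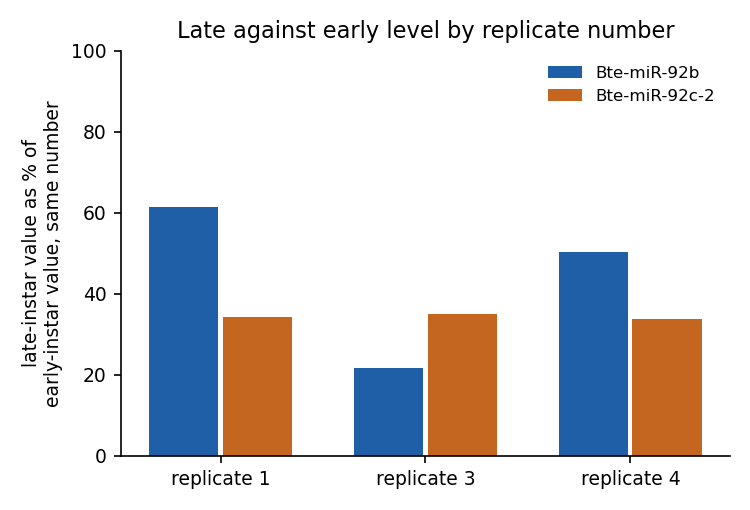
Late-instar value as a percentage of the early-instar value with the same replicate number, for Bte-miR-92b (blue) and Bte-miR-92c-2 (orange), without error bars since each bar is 1 pair of libraries. Bars of Bte-miR-92c-2 lie between 33.7% and 35.1%, those of Bte-miR-92b between 21.7% and 61.3%.

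On the same scaffold as Bte-miR-92b the table places 1 other miRNA, Bte-miR-7, which acts in sensory and neural development in Drosophila. Its precursor is also on the plus strand, from 221387 to 221501, with 92541 bases between them. Bte-miR-7 had 533 normalized reads in EQ1, 628 in EQ3 and 473 in EQ4 and 178 in LQ1, 368 in LQ3 and 198 in LQ4, with no overlap between the instars. The fall of 1.13 on the log2 scale had a standard error of 0.27 and an adjusted p of 0.00174 from limma. In LQ3, where Bte-miR-92b was at its lowest, Bte-miR-7 was at its highest late-instar value.

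The row nearest to Bte-miR-92c-2 on Group15.5 was Bte-miR-306, also on the minus strand, with 184329 bases between them. It had 1414 normalized reads in EQ1, 1384 in EQ3 and 986 in EQ4 and 1292 in LQ1, 1491 in LQ3 and 1626 in LQ4. These ranges overlapped, and the log2 fold change of 0.23 did not pass the test (adjusted p = 0.567 from limma).

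By mean level over the 6 libraries, which pools both instars, Bte-miR-92b was number 36 of 111 sequences (339 ± 184, SD over both instars) and Bte-miR-92c-2 number 48 (177 ± 98.5). The sequences next to Bte-miR-92b were Bte-miR-7 above it (396 ± 182) and Bte-miR-3785 below it (321 ± 84.0). Those next to Bte-miR-92c-2 were Bte-miR-100 (182 ± 139) and Bte-miR-34 (150 ± 43.7). Within each instar the values of Bte-miR-7 and Bte-miR-3785 overlapped those of Bte-miR-92b. Those of Bte-miR-100 (early mean 62.0, late mean 301) and Bte-miR-34 (early mean 121, late mean 180) did not overlap those of Bte-miR-92c-2 in either instar, lying below it in early and above it in late instars, so they are near it only in the pooled mean.

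The levels of the members were then set beside 2 lists of miRNAs, those known from neural progenitors or neurons of Drosophila and those known from muscle, since the family has been studied in both. Of 14 names on the neural list, 11 were matched, with 14 sequences of which 13 were tested. On this list 3 sequences fell, 2 rose and 8 did not pass the test, where 27% of all rows tested fell and 16% rose. The median log2 fold change was 0.02, against -0.14 over all distinct sequences. The 3 that fell were Bte-miR-7, the 3′ arm of Bte-miR-9a (-0.84, adjusted p = 0.0112 from limma) and Bte-bantam, a growth-promoting miRNA in Drosophila (-1.06, adjusted p = 0.00122). The 5′ arm of Bte-miR-9a did not pass the test (-0.60, adjusted p = 0.0775 from limma). This arm was far more abundant, with 8672 normalized reads in LQ1 against 14 for the 3′ arm. The 2 that rose were Bte-miR-100 and Bte-let-7, which belong to a cluster involved in developmental timing, with log2 fold changes of 1.95 and 1.13 (adjusted p = 1.86e-06 and 0.00122 from limma). On the muscle list neither Bte-miR-1 (-0.19, adjusted p = 0.588 from limma) nor Bte-miR-133 (0.15, adjusted p = 0.686) passed the test. The names miR-124, miR-184 and miR-1000 were those not matched, so they have no values here.

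The sequences whose profile over the 6 libraries was most like that of a member were found by Pearson correlation of log2(normalized reads + 20), given as a description since all points share the same libraries and the same division into instars. For Bte-miR-92b they were the 5′ arm of Bte-miR-14 (r = 0.97), Bte-miR-31 (r = 0.97) and MCD300 (r = 0.93), a predicted miRNA with no family name. The 5′ arm of Bte-miR-14 had 8789 normalized reads in EQ1, 11622 in EQ3 and 9694 in EQ4 and 6398 in LQ1, 4941 in LQ3 and 5143 in LQ4, so that, like Bte-miR-92b, it was highest in EQ3 and lowest in LQ3. For Bte-miR-92c-2 they were the predicted miRNA MC1128, Bte-miR-71 and Bte-bantam, with r of 0.99, 0.98 and 0.98. The study reports that a second RNA assay, Northern blots, failed to bear out its sequencing pattern for Bte-miR-71. MC1128 and MCD300 were low, between 9 (LQ1) and 39 (EQ4) normalized reads for MC1128 and between 1 (LQ3) and 48 (EQ3) for MCD300. All their late-instar values were under the added 20. Bte-bantam had 7389 normalized reads in EQ1, 7515 in EQ3 and 8628 in EQ4 and 3028 in LQ1, 4289 in LQ3 and 4001 in LQ4, with its lowest value in LQ1, as for Bte-miR-92c-2. The members correlated with each other at r = 0.87. In that order Bte-miR-92c-2 was number 8 for Bte-miR-92b, and Bte-miR-92b was number 20 for Bte-miR-92c-2.

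**Figure D5:**
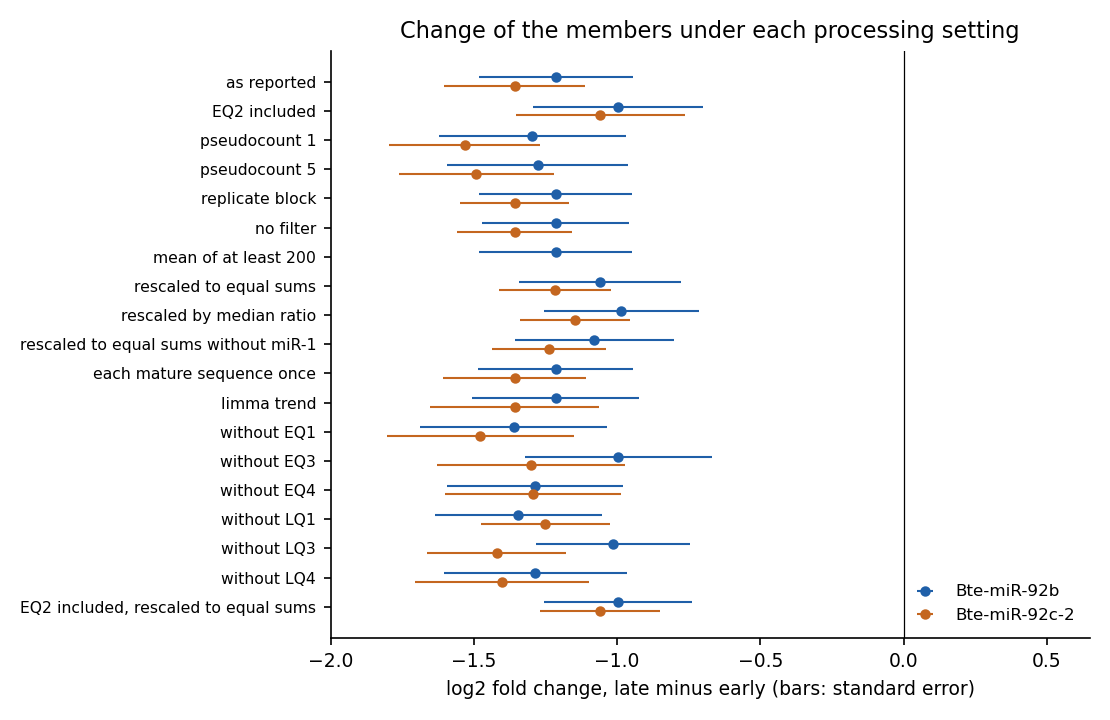
Log2 fold change of late minus early instars for Bte-miR-92b (blue) and Bte-miR-92c-2 (orange) as reported and under each other processing setting, with bars for the standard error. All points lie under 0, from -1.36 to -0.99 for Bte-miR-92b and from -1.53 to -1.06 for Bte-miR-92c-2; Bte-miR-92c-2 has no value at a mean of at least 200, which it does not reach.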

How the data were processed

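The authors prepared small RNA libraries with a 3′ adapter carrying 4 degenerate bases. They trimmed the reads, left out those of 16 nt or less, mapped the rest with PatMaN (1 mismatch, no gaps) to genome v.1.0 of B. terrestris, scaled each library to a common total, and matched reads to the insect miRNAs of miRBase v.21 with up to 2 mismatches. The deposited values were treated as a score, normalized reads rounded to whole numbers. The study calls its deposit raw counts, but the sums were judged not to follow its read numbers for each library. That comparison is not given here, and because of it no count model was used. Of the per-sample columns, 7 belong to other samples and were not used.

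limma 3.58.1 (R 4.3.3) was fitted to log2(value + 20) over the rows that reached 10 in 3 or more libraries, after a test on simulated data. Exact permutation tests were run in scipy 1.17.1 (Python 3.11.15), folding in RNAfold 2.7.2 and alignment in Biopython 1.88. Within an instar the libraries are pools from separate colonies. Early and late pools of the same number share a colony in the study's lists, which name some colonies differently. Deviations of same-numbered libraries from their instar means correlated at 0.02, 0.08 and 0.46 over 97 sequences for replicates 1, 3 and 4. For libraries of different number the correlations ran from -0.44 (EQ1 with LQ4) to 0.34 (EQ1 with LQ3).

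The members and lists were chosen with earlier results of these data known. Named besides the members are miRNAs with their seed, the nearest on their scaffolds, the 3 with the closest profiles, those next in level, and the list members. Alternatives covered EQ2, pseudocounts, filters, scaling, repeated sequences, the variance model, the colony as a block and each library left out.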

Additional observations from a re-analysis of the deposited data

Results flagged for a closer look

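The sum of normalized reads over distinct sequences in EQ2, 140733, lay apart from the other early-instar libraries (220071 to 231005), with a gap of 0.879 of the range, more than Dixon's test allows for 4 libraries at its 95% level. It was 1 of 6 quantities examined in this way, and chance marks about 1 in 20 groups. EQ2 is also a library that the study set aside, stating that longer reads took sequencing room from shorter ones and brought technical differences. Whether the low sum comes from this was not tested. For Bte-miR-92b, Bte-miR-92c-2, their sum, their share and their ratio, no early-instar library went past that limit; the widest gap at the low end was that of Bte-miR-92c-2 in EQ2 (0.627 of the range). Whether the low sum of EQ2 bears on the values of the family in that library was not tested.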

How the results depend on the processing

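Both members stayed lower in late instars with an adjusted p under 0.05 from limma under the alternatives, which gave 35 values in all, from -1.36 to -0.99 for Bte-miR-92b (adjusted p from 1.96e-04 to 0.0150) and from -1.53 to -1.06 for Bte-miR-92c-2 (7.54e-05 to 0.00364). With the colony as a replicate block the log2 fold changes were the same, -1.21 and -1.36, with adjusted p of 0.00283 and 1.72e-04, and 43 rows passed, as without it. A mean of at least 200 left 47 rows and 24 passed instead of 43. The difference in the ratio of the members, 0.14, ran from -0.093 (without LQ1) to 0.41 with each library left out, and no alternative gave an exact permutation p under 0.4. The offset fold change moved to -0.083 for Bte-miR-92b and -0.036 for Bte-miR-92c-2 with EQ2, and to -0.67 for Bte-miR-92c-2 with an offset of 100. The fit with EQ2 rescaled was chosen after the data were seen. Inclusion of library 2 of both instars was not run, since LQ2 was not analysed here. Where a library was left out, its instar had 2 libraries.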

Other observations

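Of the 96 seeds among the 111 distinct mature sequences, 6 were shared by more than 1 sequence, and each of these groups had at least 2 sequences that could be tested between instars. The miR-92 seed was the 1 of these 6 for which every tested sequence was lower in late instars at an adjusted p under 0.05 from limma, where 27% of all rows tested were lower. It rests on 2 sequences, and in the larger groups more sequences would have had to pass. The mature sequences of Bte-miR-92b and Bte-miR-92c-2 match at 20 of 22 positions. How far their values share reads was not tested, so they may not be 2 separate measurements. The log2 fold changes of Bte-miR-92b and Bte-miR-92c-2 lay 0.14 apart, where the other groups spread from 0.26 to 2.62. This distance was 0.41 without LQ3, 0.31 without EQ3 and 0.24 with 1 added to each value instead of 20. The spreads of the other groups were not computed under those settings, so the order of the groups there is not known. In the group with the miR-2 and miR-13 seed, Bte-miR-13b, Bte-miR-2a-2 and Bte-miR-11 were tested and 2 of the 3 were lower, and in the group of Bte-miR-10, Bte-miR-993 and Bte-miR-3785 1 of the 3 was. The pair of Bte-miR-275 and Bte-miR-306, which share a seed as well, held 1 sequence that was higher, Bte-miR-275. The study reports that a second RNA assay, Northern blots, failed to bear out its sequencing pattern for Bte-miR-275. The groups hold 2 to 4 tested sequences each, and a spread tends to be wider over more sequences. The spreads of the groups were not tested against each other.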
